A study of Mus musculus with 60 samples.

Results

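IL-33 and the IL-1 family are described here by 8 of the 35976 genes in a table of hippocampal gene counts: the cytokines Il33, Il1a, Il1b and Il18, the receptor chains Il1rl1, Il1r1 and Il1rap, and the protease Casp1. They were chosen by name, and all 8 were present in the table. Counts came from ribosome-depleted total RNA of the hippocampus of AppNL-G-F mice (NLGF), a knock-in line whose own App gene carries mutations of familial Alzheimer's disease, and of wild-type mice (WT), which carry none. Each genotype was sampled at weeks 3, 8 and 24, with 5 libraries labelled male and 5 labelled female at each age, 60 in all. The submitters treated males and females together as biological replicates, but no label ties a library to an animal, so p-values cover only the spread from library to library, which may be technical in part. In bulk tissue, fewer cells of a type and less RNA per cell cannot be told apart.

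Cytokines of the IL-1 family are stored inside cells or made on demand and act as alarm signals when cells are damaged or infected. IL-33 is kept in the nucleus, in the brain mainly in oligodendrocytes and astrocytes, and is read by ST2, the product of Il1rl1, whereas IL-1 alpha and IL-1 beta are read by the product of Il1r1. Both receptors need the shared partner chain encoded by Il1rap to signal through MYD88 and NF-kB, and caspase-1, activated in inflammasomes, cuts the precursors of IL-1 beta and IL-18.

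The promoters of Il33 and Il1rl1 are shown because, of the 8 genes, Il33 differed most between ages and Il1rl1 most between genotypes. RefSeq (build GRCm38.p6) gives each of them 2 transcription starts. Each window below runs from 250 bases before a start to 50 bases after it, on the plus strand, and capitals mark matches on either strand to TATAAA (the TATA box) or CCAAT (the CCAAT box, read as ATTGG on the other strand).
Il33, chr19:29924863-29925162: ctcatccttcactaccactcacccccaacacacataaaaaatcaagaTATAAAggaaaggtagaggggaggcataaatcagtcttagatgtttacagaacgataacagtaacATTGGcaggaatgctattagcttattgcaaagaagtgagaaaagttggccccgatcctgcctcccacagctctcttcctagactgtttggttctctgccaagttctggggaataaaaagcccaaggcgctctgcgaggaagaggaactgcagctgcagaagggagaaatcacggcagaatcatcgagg
Il33, chr19:29945540-29945839: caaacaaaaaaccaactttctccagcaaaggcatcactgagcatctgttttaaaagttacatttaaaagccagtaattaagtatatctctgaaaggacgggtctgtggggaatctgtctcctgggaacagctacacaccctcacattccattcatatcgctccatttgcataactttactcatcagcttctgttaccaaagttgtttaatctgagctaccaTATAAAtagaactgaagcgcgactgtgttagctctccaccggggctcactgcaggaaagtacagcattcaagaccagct
Il1rl1, chr1:40429320-40429619: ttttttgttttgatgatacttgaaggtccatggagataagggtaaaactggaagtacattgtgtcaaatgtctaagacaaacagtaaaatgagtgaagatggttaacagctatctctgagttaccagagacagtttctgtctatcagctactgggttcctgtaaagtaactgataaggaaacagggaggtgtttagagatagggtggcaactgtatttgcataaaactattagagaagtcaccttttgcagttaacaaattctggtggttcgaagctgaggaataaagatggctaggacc
Il1rl1, chr1:40439379-40439678: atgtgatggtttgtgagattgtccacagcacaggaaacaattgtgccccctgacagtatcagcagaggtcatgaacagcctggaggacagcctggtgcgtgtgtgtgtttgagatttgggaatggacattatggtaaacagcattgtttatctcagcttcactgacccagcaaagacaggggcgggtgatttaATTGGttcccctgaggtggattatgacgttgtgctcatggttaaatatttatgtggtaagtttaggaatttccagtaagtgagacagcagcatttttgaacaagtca
The second Il33 window has TATAAA at position -29 from the start, and the first has it at -203, with a CCAAT box at -138. The second Il1rl1 window has a CCAAT box at -57, and neither motif was found in the first. TATAAA occurs in 13.6% and CCAAT in 37.4% of the 32851 RefSeq promoter windows of this length. The windows held no match on either strand to TGANTCA (AP-1, in 7.81% of windows), CACGTG (an E-box, in 7.15%) or the NF-kB consensus (in 4.51%), and the marked matches do not overlap each other. Counts are per gene and do not separate transcripts of the 2 starts.

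In GENCODE vM21 (build GRCm38), Il33 lies on chromosome 19 at 29925114 to 29960718, Il1rl1 on chromosome 1 at 40429570 to 40465415 and Il1r1 on chromosome 1 at 40225080 to 40317257. Il1rap lies on chromosome 16 at 26581704 to 26730117. Il1a and Il1b lie on chromosome 2 at 129299610 to 129309972 and at 129364570 to 129371139, and Casp1 and Il18 on chromosome 9 at 5298517 to 5307265 and at 50554827 to 50581840. The strand setting of the counting is not given in the sources used here, so reads of a gene on the opposite strand cannot be told apart from those of a member. For Il1rap, 8711 of 11360 exonic bases lie inside the antisense gene Gm20319, for Il1a 1818 of 1974 inside Gm14023, for Il1b 521 of 1907 inside Il1bos and for Il18 151 of 1031 inside Bco2. Il33, Il1rl1 and Casp1 overlap no other annotated gene.

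Library totals lay between 17.8 M and 73.4 M counts (M for mega), with a median of 26.1 M. Of the 10 NLGF libraries of week 3, 7 (males 2 to 5 and females 1, 4 and 5) held 54.0 to 73.4 M, and no other library exceeded 35.2 M. The counts of NLGF W3 male 2 went against its sex label, and NLGF W8 female 1 has an age field of 3 weeks beside a title of week 8. The library labelled NLGF W8 female 5 stood apart from its age. On a score of 100 genes that differ between weeks 8 and 3 in WT (the 8 genes left out, WT means set to 0 at week 3 and 1 at week 8), it stood at 0.0147, against 0.932 to 1.19 in the other 9 NLGF libraries of week 8 and -0.321 to 0.256 in WT libraries of week 3. Both were kept under the week of their titles, and results that rest on the last library are given with and without it. As markers of other cells, 10 T cell and innate lymphoid genes summed to 0.634 to 5.32 CPM (the usual depth-scaled count unit, here on TMM-adjusted library totals) and 13 monocyte, neutrophil and mast cell genes to 0.0884 to 1.58 CPM, while choroid plexus genes ranged from 32.1 to 10808 CPM.

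Il33 rose with age in both genotypes and had the largest change with age of the 8 genes. At week 3 the lowest, median and highest Il33 levels were 7.66, 12.9 and 23.6 CPM in NLGF against 7.31, 10.8 and 20.2 CPM in WT. At week 8 they were 10.5, 38.1 and 47.0 CPM in NLGF against 27.7, 35.8 and 45.0 CPM in WT. At week 24 they were 48.3, 55.6 and 76.9 CPM in NLGF against 34.6, 55.1 and 62.3 CPM in WT. In each genotype every library of week 24 lay above every library of week 3. At week 8 in NLGF only the library labelled W8 female 5, at 10.5 CPM, lay in the range of week 3, and in WT every library of week 8 lay above every library of week 3.

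**Figure D1:**
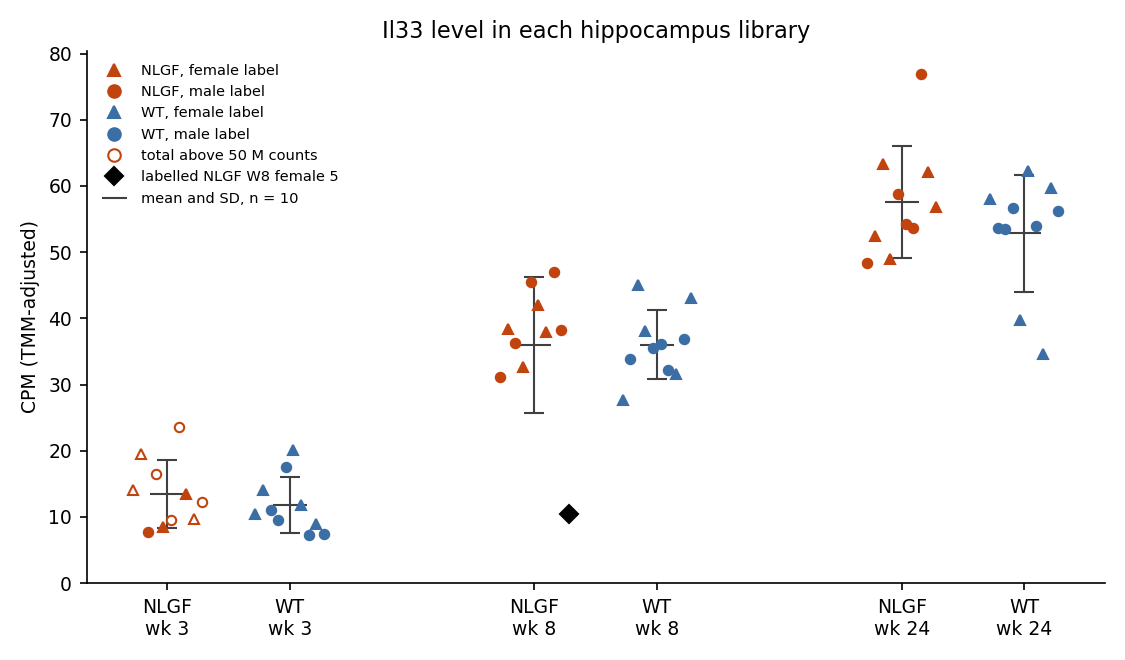
Il33 level (CPM, vertical axis) in each of the 60 libraries by genotype and week, NLGF left of WT at each age. Lines show mean and SD of 10 libraries, open symbols the 7 libraries above 50 M counts and the black diamond the library labelled NLGF W8 female 5, at 10.5 CPM among the values of week 3.

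Changes were tested across all genes with edgeR's quasi-likelihood test and called at a Benjamini-Hochberg adjusted p under 0.05. For Il33, week 8 over week 3 gave a log2 fold change of 1.41 ± 0.199 in NLGF (SE, adjusted p = 3.1e-05) and of 1.61 ± 0.151 in WT (adjusted p = 1.5e-08). Week 24 over week 3 gave 2.10 ± 0.202 in NLGF (adjusted p = 9.5e-09) and 2.16 ± 0.153 in WT (adjusted p = 1.0e-11), that is 4.28-fold in NLGF and 4.47-fold in WT. Without the library labelled NLGF W8 female 5, week 8 over week 3 in NLGF was 1.52 ± 0.157 (adjusted p = 1.3e-07). Without the 7 deep libraries the NLGF values were 1.81 ± 0.306 at week 8 and 2.50 ± 0.317 at week 24, each over week 3 (adjusted p = 0.00080 and 1.4e-05). These 4 comparisons were called in each of the 30 fits that left out 1 library.

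For Il33 between weeks 8 and 24 no call was made. The log2 fold change was 0.69 ± 0.194 in NLGF (edgeR adjusted p = 0.064) and 0.55 ± 0.145 in WT (adjusted p = 0.12). In NLGF the lowest library of week 24, at 48.3 CPM, lay above the highest of week 8, at 47.0 CPM, and in WT the ages overlapped. DESeq2 called this step in both genotypes, with adjusted p = 0.013 in NLGF and 0.032 in WT. Without the 7 deep libraries edgeR also called it in NLGF (0.68 ± 0.177, adjusted p = 0.045), as it did when NLGF W3 male 1 or male 4 was left out. Without the library labelled NLGF W8 female 5 it was 0.58 ± 0.154 (adjusted p = 0.051). Genes whose libraries do not overlap between ages made up 0.581% of those tested for NLGF week 24 over week 8, 3.06% for NLGF week 24 over week 3, 0.528% for WT week 8 over week 3 and 2.87% for WT week 24 over week 3. Il33 was the 1 member among them in each.

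Among markers of the cells known to hold IL-33, at week 24 over week 3, 8 of 12 mature oligodendrocyte genes fell in NLGF and 9 of 12 in WT. The remaining called marker, Klk6, named after its values were seen, rose in both (1.27 in NLGF and 1.31 in WT). Of 8 oligodendrocyte precursor genes 7 fell in NLGF and 6 in WT, and of 10 astrocyte genes 3 fell in each, with 0 rising. With the 7 deep libraries left out, 8 of 12 mature oligodendrocyte genes (0 rising), 6 precursor genes and 3 astrocyte genes fell in NLGF. In that fit 1 astrocyte gene rose. Of all genes, 25.7% in NLGF (28% without the deep libraries) and 21.9% in WT were called in either direction. The 3 of 10 astrocyte genes that fell were near these shares. Summed levels of 12 mature oligodendrocyte markers had medians of 9936, 4588 and 4502 CPM at weeks 3, 8 and 24 in NLGF and of 9676, 4761 and 4425 CPM in WT. The 8 oligodendrocyte precursor markers had medians of 934, 690 and 655 CPM in NLGF and 929, 710 and 643 CPM in WT. The 10 astrocyte markers had medians of 8580, 7607 and 7898 CPM in NLGF and 7890, 7461 and 8065 CPM in WT. The library labelled NLGF W8 female 5 had 15530 CPM of mature oligodendrocyte markers, the highest of its group. The part of these cells in the Il33 change was not tested.

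**Figure D2:**
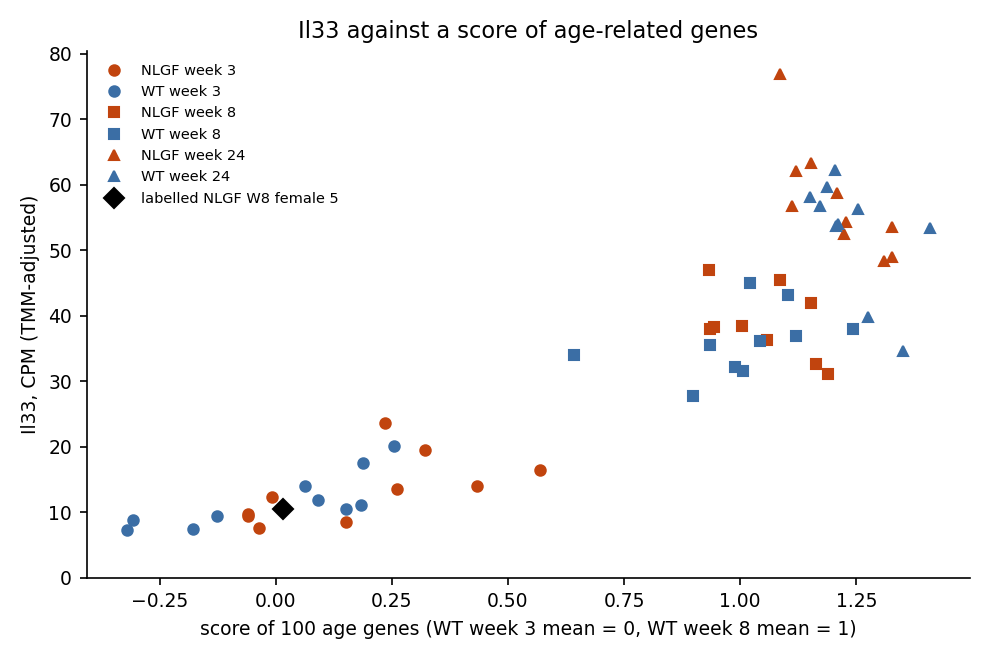
Il33 level (CPM, vertical axis) against the score of 100 age genes (horizontal axis, WT mean 0 at week 3 and 1 at week 8) in each library, coloured by genotype with the week as shape. The library labelled NLGF W8 female 5 (black diamond, score 0.0147) lies among libraries of week 3.

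Across the 53 libraries under 50 M counts, which share ages and genotypes, the genes most like Il33 on the log2(CPM + 0.5) scale were Crebrf (Pearson r = 0.911, Spearman rho = 0.905), Ankrd12 (r = 0.908, rho = 0.811), Cntln (r = 0.876, rho = 0.842), Upp2 (r = 0.874, rho = 0.796) and Cdc14b (r = 0.872, rho = 0.857), of 13305 genes compared. Around the means of the genotype, week and sex groups, r with Il33 was 0.649, 0.653, 0.647, 0.457 and 0.545 for these 5 genes in the same order. Here and below, the group means were taken over all 60 libraries, the deep ones included. The r and rho values describe the 53 libraries.

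The shared receptor chain gene Il1rap fell with age. Its medians were 57.9, 47.3 and 45.3 CPM at weeks 3, 8 and 24 in NLGF and 55.1, 40.0 and 40.8 CPM in WT. Libraries ranged from 37.6 to 70.2 CPM in NLGF and from 29.5 to 63.5 CPM in WT, and the ages overlapped in each genotype. Week 24 over week 3 gave a log2 fold change of -0.28 ± 0.0990 in NLGF (edgeR adjusted p = 0.035) and -0.39 ± 0.0955 in WT (adjusted p = 0.0031). Week 8 over week 3 gave -0.20 ± 0.0990 in NLGF (adjusted p = 0.23) and -0.36 ± 0.0955 in WT (adjusted p = 0.016). The NLGF call at week 24 was not made without the 7 deep libraries (-0.21 ± 0.149, adjusted p = 0.32), and it was lost in 11 of the 30 fits that left out 1 library, those without NLGF W24 males 1, 2 or 5, W24 females 2, 3 or 5, W3 males 2, 3 or 4 or W3 females 1 or 3 (adjusted p up to 0.078).

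Casp1, the inflammasome protease, rose with age from a low level, in WT mainly in libraries labelled male. Its medians were 0.790, 1.15 and 1.67 CPM at weeks 3, 8 and 24 in NLGF and 0.681, 1.03 and 1.06 CPM in WT, on 5 to 90 counts per library, and the ages overlapped. In WT the means at these weeks were 0.419, 1.03 and 1.60 CPM in males and 0.948, 1.29 and 1.06 CPM in females. In NLGF they were 0.827, 1.41 and 1.60 CPM in males and 0.727, 1.27 and 1.72 CPM in females (n = 5 each). The age change was not tested in each sex alone. Week 24 over week 3 gave a log2 fold change of 1.08 ± 0.264 in NLGF (edgeR adjusted p = 0.0026) and 0.99 ± 0.325 in WT (adjusted p = 0.026). The NLGF call held in all 30 fits that left out 1 library, and the WT call was lost without WT W24 male 5, W24 female 2 or W3 males 2, 3 or 4 (adjusted p up to 0.073). Without the 7 deep libraries the NLGF value was 1.44 ± 0.444 (adjusted p = 0.017). Week 8 over week 3 gave 0.77 ± 0.265 in NLGF (adjusted p = 0.060) and 0.79 ± 0.325 in WT (adjusted p = 0.16). It was called in NLGF without the library labelled NLGF W8 female 5 (0.83 ± 0.267, adjusted p = 0.037) and when NLGF W24 male 3, W3 male 4, W3 female 5, W8 male 1 or W8 female 1 was left out, and in WT without WT W8 female 1 (0.91, adjusted p = 0.049).

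**Figure D3:**
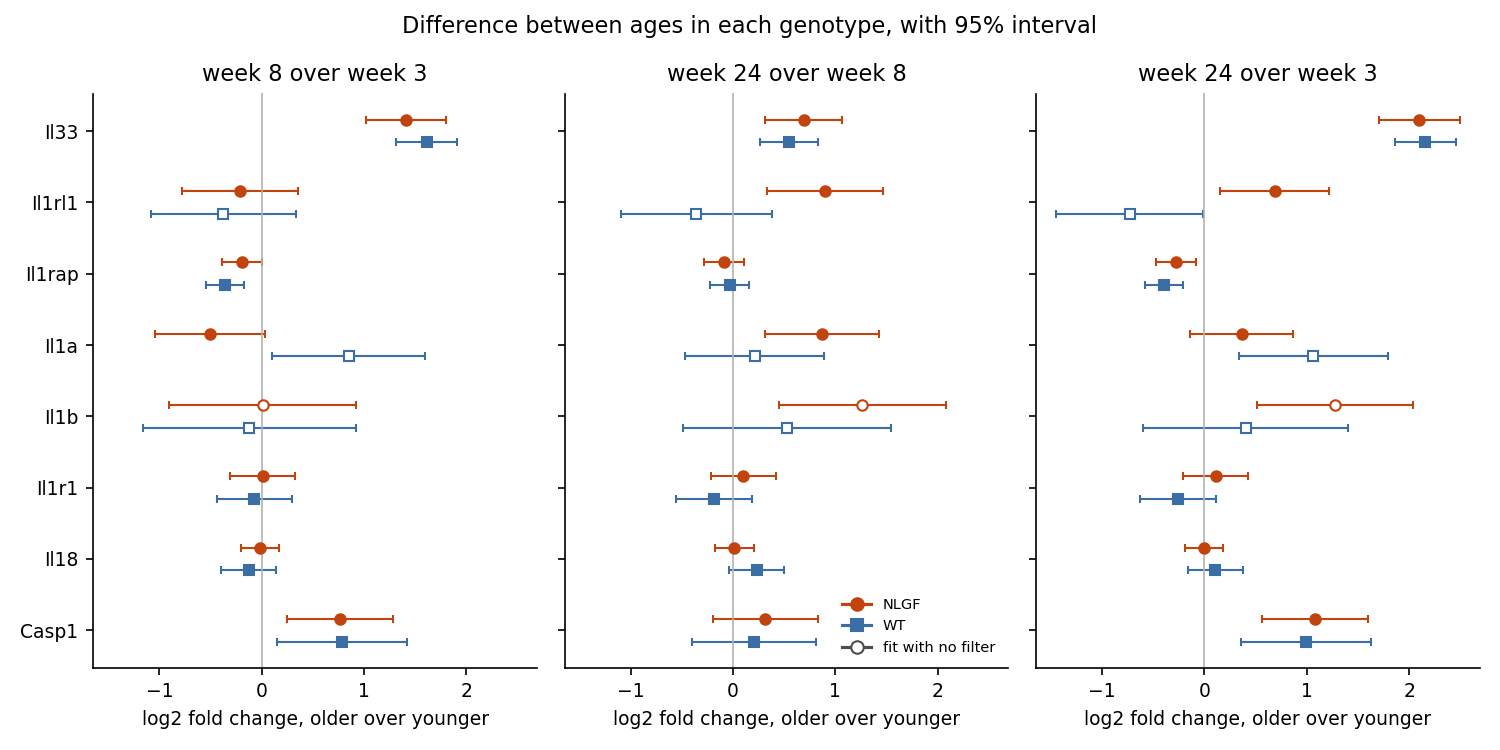
Log2 fold change between ages (horizontal axis, older over younger, with 95% interval) of each gene, NLGF above WT. Filled symbols come from the fit with a filter on low counts and open symbols from the fit without it, and the Il33 intervals lie above 0 in all 3 panels.

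In NLGF, 1 of the 7 members tested was called at week 8 over week 3 (10.4% of all genes), 0 of 7 at week 24 over week 8 (1.9%) and 3 of 7 at week 24 over week 3 (25.7%). Without the 7 deep libraries the counts were 1 (14.6%), 1 (2.16%) and 2 (28%) of 7. In WT, 2 of the 5 members tested were called at week 8 over week 3 (7.14% of all genes), 0 of 5 at week 24 over week 8 (0.279%) and 3 of 5 at week 24 over week 3 (21.9%). Where edgeR called 0, at week 24 over week 8, 3 members in NLGF and 1 in WT had an unadjusted p under 0.05, as did 12.2% of all genes in NLGF and 11.5% in WT. DESeq2 called 1 member in each, among 483 of 17391 genes in NLGF and 110 of 16844 in WT. The median log2 fold change of the members tested at week 24 over week 3 was 0.36 over 7 members in NLGF (0.77 without the 7 deep libraries) and 0.10 over 5 members in WT, beside 0.01 over all genes in each. These medians cover different genes, since Il1rl1 and Il1a passed the filter only in NLGF, and among the 5 shared members the middle value in NLGF was that of Il1r1, at 0.11.

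Il1b and Il1a, the cytokines read by the product of Il1r1, were near the limit of detection. Il1b had medians of 0.0799, 0.0745 and 0.204 CPM at weeks 3, 8 and 24 in NLGF and 0.0925, 0.0875 and 0.118 CPM in WT, with at most 12 counts in a library and 5 libraries at 0. The filter left Il1b out of every comparison. With no filter, week 24 over week 3 gave a log2 fold change of 1.27 ± 0.390 in NLGF (edgeR adjusted p = 0.023) and 0.40 ± 0.510 in WT (adjusted p = 0.68). Il1a, active already as its precursor, had medians of 0.350, 0.242 and 0.470 CPM in NLGF and 0.154, 0.313 and 0.328 CPM in WT, on 1 to 34 counts. Its ages overlapped, and no age comparison of Il1a was called. In the fit with no filter, week 24 over week 3 in WT gave 1.06 ± 0.372 for Il1a (adjusted p = 0.059).

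Between genotypes, in the fits of each age with sex as covariate, none of the members that passed the filter was called. With edgeR it was 0 of 5 at week 3, 0 of 5 at week 8 and 0 of 6 at week 24, where 3.78%, 0% and 0.878% of all genes were called. At an unadjusted p under 0.05 there were 0, 2 and 2 members at weeks 3, 8 and 24, beside 22%, 7.83% and 8.99% of all genes, and DESeq2 called 0 members at each age. Without the 7 deep libraries 0 of 5 members were called at week 3, as were 0% of all genes. The median log2 fold change of the members tested was 0.19, 0.25 and 0.27 at weeks 3, 8 and 24, beside 0.01, -0.01 and -0.00063 over all genes, and at week 3 it was -0.11 without the 7 deep libraries. These medians cover different genes, since Il1a passed the filter only at week 24. Among the 5 shared members the middle value at week 24 was that of Il1rap, at 0.20.

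Il33 was close between genotypes. It stood at 13.5 ± 5.15 CPM in NLGF against 11.8 ± 4.26 CPM in WT at week 3, at 36.0 ± 10.3 CPM in NLGF against 36.0 ± 5.20 CPM in WT at week 8, and at 57.6 ± 8.45 CPM in NLGF against 52.8 ± 8.78 CPM in WT at week 24 (SD, n = 10 per genotype and age). NLGF over WT was 0.19 (95% interval -0.25 to 0.63), -0.02 (-0.36 to 0.31) and 0.13 (-0.07 to 0.32) on the log2 scale at weeks 3, 8 and 24. At week 3 without the 7 deep libraries the Il33 value was -0.32 ± 0.281, and at week 8 without the library labelled NLGF W8 female 5 it was 0.10 ± 0.0934. None of these passed the test. The genotype effect on Il33 at week 24 minus that at week 3 was -0.05 ± 0.249 (edgeR adjusted p = 0.96).

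**Figure D4:**
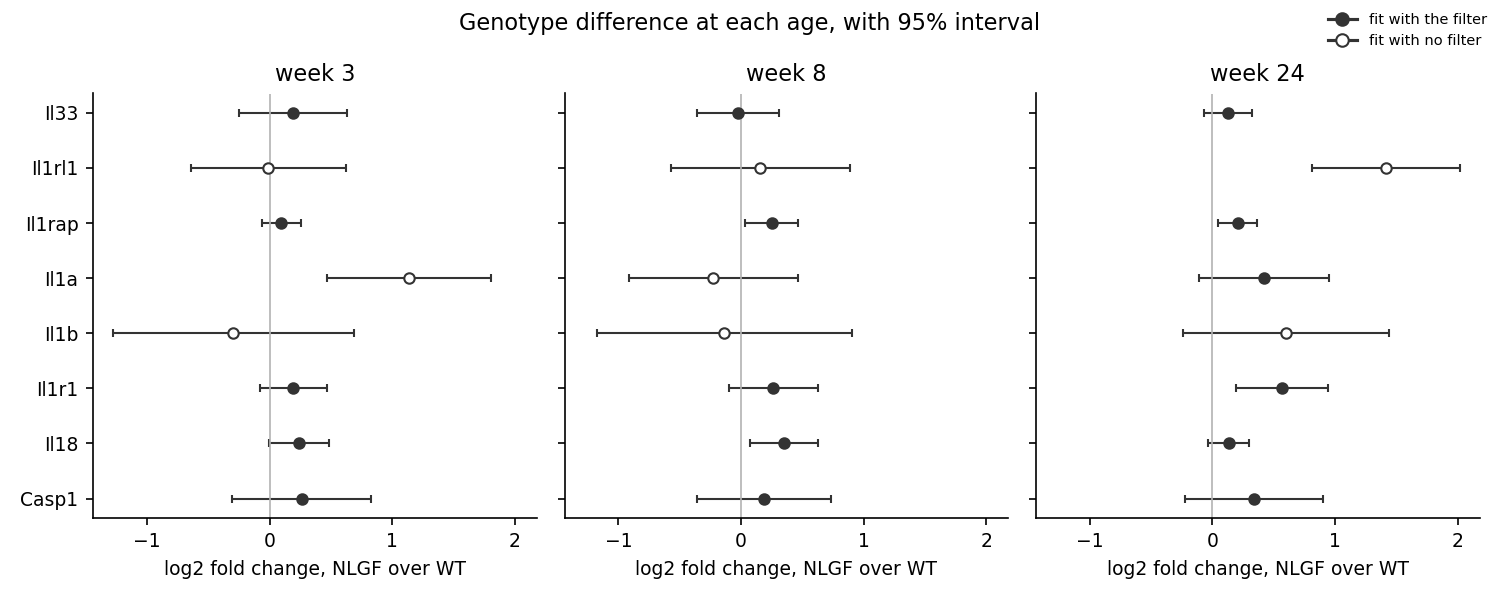
Log2 fold change of NLGF over WT (horizontal axis, with 95% interval) of each gene at weeks 3, 8 and 24. Filled symbols come from the fit with a filter on low counts and open symbols from the fit without it, in which Il1rl1 at week 24 stood at 1.41.

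Il1rl1, the gene of the IL-33 receptor ST2, was higher in NLGF at week 24, at a low level. The lowest, median and highest levels were 0.167, 0.476 and 0.754 CPM in NLGF and 0.0805, 0.141 and 0.404 CPM in WT, on 5 to 20 counts per NLGF library and 2 to 10 per WT library, 129 counts in all in NLGF and 47 in WT. The highest WT library, male 2 at 0.404 CPM, lay above NLGF males 1 and 2 and female 4, and the other 7 NLGF libraries lay above every WT library. At week 3 the Il1rl1 medians were 0.297 CPM in NLGF against 0.310 CPM in WT, and at week 8 they were 0.241 CPM in NLGF against 0.223 CPM in WT, with the groups overlapping. With age in NLGF, Il1rl1 gave a log2 fold change of 0.90 ± 0.291 at week 24 over week 8 (edgeR adjusted p = 0.12) and 0.68 ± 0.271 at week 24 over week 3 (adjusted p = 0.062), neither called. In WT it gave -0.73 ± 0.366 at week 24 over week 3 in the fit with no filter (adjusted p = 0.22).

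The filter on low counts left Il1rl1 out of the comparison at week 24. With no filter, the log2 fold change was 1.41 ± 0.308 (edgeR adjusted p = 0.021), in a fit that called 0.474% of genes. DESeq2 with no filter gave 1.43 ± 0.339 (adjusted p = 0.0038), and edgeR on all 60 libraries gave 1.42 ± 0.324 (adjusted p = 0.0099). The authors' deposited table lists Il1rl1 at week 24 with a log2 fold change of 0.91 (adjusted p = 0.0043). In the fit with no filter the call was lost without NLGF males 4 or 5, NLGF females 1 or 2 or WT female 2 (adjusted p = 0.0508 to 0.0562) and held without each of the other 15 libraries, while the log2 fold change ran from 1.32 to 1.67. The genotype effect on Il1rl1 at week 24 minus that at week 8 was 1.26 ± 0.473 (edgeR adjusted p = 0.84), and minus that at week 3 it was 1.47 ± 0.449 (adjusted p = 0.097). The second was called only when WT W24 male 2 or WT W3 female 1 was left out, of 60 such fits (lowest adjusted p = 0.048).

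Microglial markers stood beside the Il1rl1 difference. At week 24, 12 homeostatic microglia markers summed to 359 to 451 CPM in NLGF and 308 to 348 CPM in WT, and 14 markers of microglia at plaques to 221 to 281 CPM in NLGF and 140 to 190 CPM in WT, with no overlap of the groups in either. T cell and innate lymphoid markers summed to 0.634 to 3.21 CPM in NLGF and 0.938 to 3.18 CPM in WT. Monocyte, neutrophil and mast cell markers summed to 0.195 to 0.943 CPM in NLGF and 0.0884 to 0.558 CPM in WT, with 2 of the 13 genes at 0 in all libraries of each. The part of these cells in the Il1rl1 difference was not tested.

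**Figure D5:**
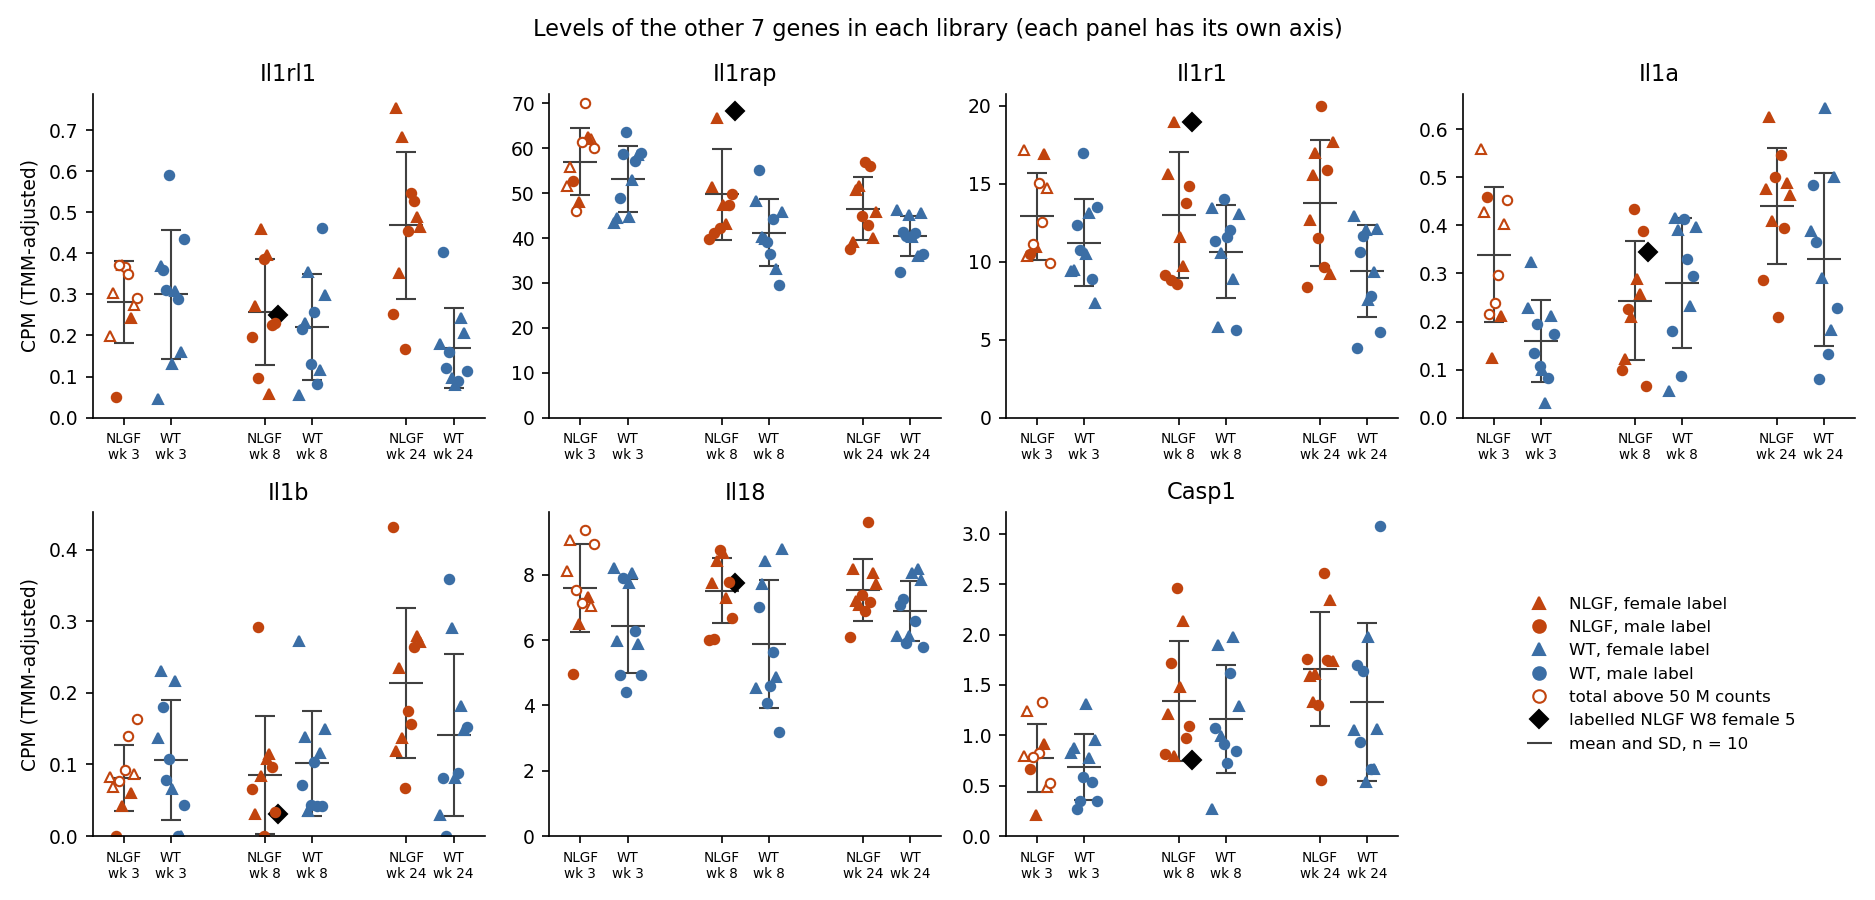
Level (CPM, vertical axis, a separate scale for each panel) of the other 7 genes in each library, NLGF left of WT at each week. Lines show mean and SD of 10 libraries, open symbols the 7 libraries above 50 M counts and the black diamond the library labelled NLGF W8 female 5. In the Il1rl1 panel 7 NLGF libraries of week 24 lie above every WT library of that age.

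Il1r1, the receptor of IL-1 alpha and IL-1 beta, stood at 12.9 ± 2.79, 13.0 ± 4.04 and 13.8 ± 4.02 CPM at weeks 3, 8 and 24 in NLGF and at 11.2 ± 2.80, 10.6 ± 3.00 and 9.39 ± 2.96 CPM in WT (SD, n = 10 per genotype and age). At week 24 the lowest, median and highest libraries were 8.40, 14.1 and 20.02 CPM in NLGF and 4.49, 9.98 and 12.9 CPM in WT, and the groups overlapped. NLGF over WT was 0.57 ± 0.191 at week 24 (unadjusted p = 0.0078, edgeR adjusted p = 0.31). With a block of sex and replicate number in place of sex, Il1r1 was called at week 24, but no label backs such pairs. The genes most like Il1r1 over the 53 libraries were Rfx3 (Pearson r = 0.853, Spearman rho = 0.811), Prox1 (r = 0.845, rho = 0.766), Dsp (r = 0.834, rho = 0.774), Tdo2 (r = 0.827, rho = 0.756) and Plekha2 (r = 0.827, rho = 0.782). Prox1, a transcription factor of dentate granule neurons, had r = 0.864 with Il1r1 around the group means. Prox1 in NLGF over WT at week 24 was 0.41 ± 0.177 (edgeR adjusted p = 0.50), and its part in the Il1r1 difference was not tested.

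Il1rap, the partner of both receptors, stood at 57.0 ± 7.49 CPM in NLGF against 53.1 ± 7.29 CPM in WT at week 3, at 49.7 ± 10.1 CPM in NLGF against 41.2 ± 7.48 CPM in WT at week 8, and at 46.5 ± 6.96 CPM in NLGF against 40.5 ± 4.53 CPM in WT at week 24 (SD, n = 10 per genotype and age). NLGF over WT was 0.09 ± 0.0813, 0.25 ± 0.111 and 0.20 ± 0.0823 on the log2 scale at weeks 3, 8 and 24 (edgeR adjusted p = 0.52, 0.63 and 0.44). Without the library labelled NLGF W8 female 5, whose 68.2 CPM was the highest of its group, the week 8 value was 0.21 ± 0.108. The genes most like Il1rap were Dock10 (Pearson r = 0.872, Spearman rho = 0.871), Sema5a (r = 0.815, rho = 0.807), Plekha2 (r = 0.812, rho = 0.811), Tgfa (r = 0.802, rho = 0.829) and Prox1 (r = 0.797, rho = 0.800). Among pairs of the 8 genes, Il1rap and Il1r1 had the highest r over the 53 libraries, 0.680, and 0.694 around the group means.

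Il18, a cytokine that caspase-1 matures, stood at 7.60 ± 1.34, 7.52 ± 1.01 and 7.53 ± 0.942 CPM at weeks 3, 8 and 24 in NLGF and at 6.43 ± 1.45, 5.89 ± 1.96 and 6.89 ± 0.915 CPM in WT (SD, n = 10 per genotype and age). No age difference of Il18 was called in either genotype. NLGF over WT was 0.24 ± 0.126, 0.35 ± 0.143 and 0.13 ± 0.0837 on the log2 scale at weeks 3, 8 and 24 (edgeR adjusted p = 0.26, 0.63 and 0.68), and at week 3 it was -0.11 ± 0.171 without the 7 deep libraries. At week 8 libraries spread over 6.02 to 8.77 CPM in NLGF and 3.20 to 8.80 CPM in WT. The genes most like Il18 were Rictor (Pearson r = 0.874, Spearman rho = 0.753), Snord64 (r = 0.851, rho = 0.728), the microglial receptor gene P2ry12 (r = 0.848, rho = 0.709), ATP8 (r = 0.840, rho = 0.709) and Tug1 (r = 0.836, rho = 0.724).

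Casp1 stood at 0.777 ± 0.337 CPM in NLGF against 0.683 ± 0.327 CPM in WT at week 3, at 1.34 ± 0.595 CPM in NLGF against 1.16 ± 0.539 CPM in WT at week 8, and at 1.66 ± 0.563 CPM in NLGF against 1.33 ± 0.782 CPM in WT at week 24 (SD, n = 10 per genotype and age). Its genotype difference was not called at any age, and at week 24 it was 0.34 ± 0.288 (edgeR adjusted p = 0.76). The genes most like Casp1 were Cav2 (Pearson r = 0.807, Spearman rho = 0.773), Oxr1 (r = 0.806, rho = 0.769), Fgf12 (r = 0.802, rho = 0.765), Necab1 (r = 0.799, rho = 0.791) and Rgs17 (r = 0.795, rho = 0.757).

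Il1a at week 3 stood at 0.339 ± 0.141 CPM in NLGF against 0.159 ± 0.0852 CPM in WT (SD, n = 10 per genotype and age), and the groups overlapped. The filter left it out. With no filter, NLGF over WT was 1.14 ± 0.341 (edgeR adjusted p = 0.087), and on all 60 libraries it was 1.13 ± 0.326 (adjusted p = 0.019). The authors' deposited table lists Il1a at week 3 with a log2 fold change of 0.36 (adjusted p = 0.016). With no filter and without the 7 deep libraries it was 0.73 ± 0.622 (adjusted p = 0.74). At week 24 Il1a passed the filter, with 0.42 ± 0.270 (adjusted p = 0.68), and Il1b with no filter gave 0.60 ± 0.428 (adjusted p = 0.73).

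The genotype effect averaged over weeks 8 and 24, a comparison added after the values were seen, called 0 members and 0.386% of genes with edgeR. It was 0.78 ± 0.233 for Il1rl1 (adjusted p = 0.14), 0.41 ± 0.136 for Il1r1 (adjusted p = 0.19), 0.23 ± 0.0708 for Il1rap (adjusted p = 0.16) and 0.24 ± 0.0844 for Il18 (adjusted p = 0.21). These 4 had an unadjusted p under 0.05, as did 2612 of the 17348 genes tested. It was 0.05 ± 0.102 for Il33, 0.25 ± 0.205 for Casp1 and 0.09 ± 0.221 for Il1a. Without the library labelled NLGF W8 female 5 it was 0.10 ± 0.0681 for Il33, 0.78 ± 0.240 for Il1rl1, 0.38 ± 0.137 for Il1r1, 0.20 ± 0.0679 for Il1rap, 0.24 ± 0.0854 for Il18, 0.28 ± 0.206 for Casp1 and 0.06 ± 0.230 for Il1a, again with 0 called. DESeq2 was not run on this comparison.

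The change of the genotype effect between ages was called for 0 of 7 members at week 24 minus week 8 (0.31% of all genes) and for 0 of 7 at week 24 minus week 3 (1.1%). In each, 1 member, Il1rl1, had an unadjusted p under 0.05, as did 3.8% and 13.2% of all genes in these comparisons, and DESeq2 called 0. Between the labelled sexes, adjusted for genotype and age, 0 of 7 were called by edgeR or DESeq2 (0.0958% of all genes), and 1, Il18, had an unadjusted p under 0.05, as did 4.03% of all genes. Il18 stood at 6.53 ± 1.56 CPM in libraries labelled male and 7.42 ± 1.12 CPM in those labelled female (SD, n = 30 per sex), a log2 fold change of -0.19 ± 0.0704 (edgeR adjusted p = 0.99).

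Levels of different genes were compared per kilobase of annotated exon. At week 24 the order in both genotypes was Il33, Il18, Il1rap, Il1r1, Casp1, Il1a, Il1b and Il1rl1. Il33 stood at 19.9 ± 2.93 CPM per kilobase in NLGF and 18.3 ± 3.04 in WT, Il18 at 7.31 ± 0.914 in NLGF and 6.69 ± 0.888 in WT, and Il1rl1 at 0.0680 ± 0.0260 in NLGF and 0.0246 ± 0.0143 in WT (SD, n = 10 per genotype and age). At week 3 Il18 came first, at 7.37 ± 1.30 CPM per kilobase in NLGF and 6.24 ± 1.41 in WT. Il1rap followed at 5.02 ± 0.660 in NLGF and 4.68 ± 0.642 in WT, and Il33 at 4.67 ± 1.78 in NLGF and 4.10 ± 1.48 in WT, and these last neighbours did not differ beyond their spread. The same held for Il1b and Il1rl1 at week 3, with 0.0426 ± 0.0242 and 0.0409 ± 0.0145 in NLGF and 0.0555 ± 0.0439 and 0.0435 ± 0.0229 in WT.

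Among genes of inflammasomes and of cytokine release, taken as 1 list, 1 of 13 tested was called in NLGF against WT at week 24. It was higher, and 0.878% of all genes were called. This was Naip2, a sensor of bacterial proteins, at 2.53 ± 0.516 CPM in NLGF against 1.46 ± 0.261 CPM in WT (SD, n = 10 per genotype and age), a log2 fold change of 0.80 ± 0.133 (edgeR adjusted p = 0.0015). Its counts are uncertain, since the Naip genes are close copies of each other. The list's median was 0.31, beside -0.00063 over all genes. In this comparison 7 of the 13 had an unadjusted edgeR p under 0.05, beside 8.99% of all genes. Between genotypes at weeks 3 and 8 it was 1 of 14 and 0 of 13, beside 22% and 7.83%. From week 8 to week 24 in NLGF, 4 of 14 rose, namely Naip2 (1.00), the sensor gene Nlrp3 (0.74), the adaptor gene Pycard (0.65) and Naip5 (0.84), and 6 of 16 without the 7 deep libraries, beside 1.9% and 2.16% of all genes called in either direction. In WT 0 of 13 were called at that step by edgeR, beside 0.279% of all genes. There 1 had an unadjusted p under 0.05, beside 11.5% of all genes. In NLGF 7 of 14 had such a p at that step, beside 12.2% of all genes. The genotype effect at week 24 minus that at week 3 was called for Naip5 (1.10 ± 0.284, adjusted p = 0.032), of 14 tested, beside 1.1% of all genes. This comparison includes the 7 deep libraries of week 3, and the Naip5 value without them is not given here. At week 24 over week 3 in NLGF, 6 rose and 2 fell of 14, where 25.7% of all genes were called. Once the 7 deep libraries were left out 2 rose and 1 fell of 16, where 28% of all genes were called, so the count was then no higher than that share. The 14 markers of microglia at plaques, which differ in the same samples, are given above, and their part in these values was not tested.

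Of 25 signalling genes from MYD88 to NF-kB, 1 was called between genotypes at week 3, beside 3.78% of all genes. This was the kinase adaptor gene Tab2 (0.29 ± 0.0701, edgeR adjusted p = 0.028). Without the 7 deep libraries Tab2 was 0.05 ± 0.0876 (adjusted p = 0.84) and 0 genes were called. At weeks 8 and 24, 0 were called, with 2 at an unadjusted p under 0.05 at each, beside 7.83% and 8.99% of all genes. At week 24 over week 3 in NLGF, 3 fell, namely Tollip, an inhibitor of receptor signalling (-0.20), Peli1 (-0.17) and the kinase gene Ikbkb (-0.18), and without the 7 deep libraries 5 fell and 1 rose. In WT at these ages 5 fell, among them Ikbkb (-0.37), Tollip (-0.17), Nfkb2 (-0.42) and the kinase gene Irak4 (-0.69), and 1 rose. Counts between ages were near or below the shares of all genes called, 25.7% in NLGF (28% without the deep libraries) and 21.9% in WT. Those between genotypes were near or below the shares given beside them. Neither gives a result about the list.

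Of 6 tested NF-kB targets, 1 rose from week 8 to week 24 in NLGF, the chemokine gene Ccl3, at 0.0888 ± 0.102 CPM at week 8 and 0.580 ± 0.176 CPM at week 24 (2.77 ± 0.377, edgeR adjusted p = 1.0e-05), where 1.9% of all genes were called. After the 7 deep libraries were left out 2 of 7 rose at this step, Ccl3 (2.75) and the chemokine gene Ccl4 (2.47). At week 24 over week 3 in NLGF 2 of 6 rose, Ccl3 (2.83) and Cxcl10 (1.08), and 3 of 7 with the deep libraries left out, beside 25.7% and 28% of all genes called. Between genotypes, 0 of 4 targets were called at weeks 3 and 8 and 0 of 5 at week 24. The shares of all genes there were 3.78%, 0% and 0.878%. In WT 0 of 4 were called at week 8 over 3, 24 over 8 or 24 over 3. All genes called there were 7.14%, 0.279% and 21.9%. The only other ligand or antagonist that passed the filter, Il18bp, the IL-18 binding protein gene, stood at 1.35 ± 0.407 CPM in NLGF against 1.22 ± 0.224 CPM in WT at week 24. Among the other receptors Il1rapl1 stood at 11.4 ± 1.09 CPM in NLGF against 12.3 ± 2.51 CPM in WT at that age, and neither gene was called between genotypes or ages.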

How the data were processed

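The submitters' protocols describe rRNA-depleted libraries of total hippocampal RNA. The authors deposited raw counts per gene symbol, 1 column per library, and a table of the log2 fold changes with p-values of the genes they called. The submitters' processing notes name FastQC, STAR, edgeR, DESeq2 and mm10, giving no versions. Which read counter, annotation and strand setting they used is not given in the sources used. The 8 members and all gene lists were chosen with earlier results of these data known.

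Counts were filtered (filterByExpr, minimum count 10), scaled with TMM and tested in edgeR 4.0.16 (R 4.3.3) by a robust quasi-likelihood F-test (2-sided, Benjamini-Hochberg over all genes tested) with sex as covariate. Genotypes were compared among the 20 libraries of an age, ages among the 30 of a genotype, and the difference of the genotype effect on all 60. The SE is the absolute log2 fold change over the square root of F, and 95% intervals are 1.96 SE either side. Alternatives were DESeq2 1.42.0, RLE scaling, other filters, each library left out, no sex term, each sex alone and a block of sex and replicate number. The fits without the 7 deep libraries for week 24 over week 8, without NLGF W8 female 5 jointly, and DESeq2 with no filter were added after the data were seen. So were the week 3 fits without the deep libraries that used no filter or DESeq2. Also added then were the averaged genotype effect and, for Il1rl1, the fits with no filter that left out 1 library. Named genes are the 8 members, up to 4 called genes of each list with the smallest p, and the 5 genes most like each member above a mean of 1 CPM. The protease list is not reported here. The filtered edgeR fits of week 3, week 24, WT, NLGF and all 60 libraries were first checked with simulated counts. Changes were simulated only in genes of at least 1 CPM. The fit of week 8, DESeq2, the fits with no filter and those with a replicate block were not checked this way. Total counts per library limit the precision of Il1rl1, Il1a and Il1b.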

Additional observations from a re-analysis of the deposited data

Results flagged for a closer look

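In groups of 10 libraries, a value was set apart when its gap to the nearest library, as a share of the group's range, exceeded Dixon's critical value for that group size. Of the 48 groups tested 5 held such a value, and chance flags about 1 in 20. Il33 stood at 10.5 CPM in the library labelled NLGF W8 female 5, below the rest of its group, and at 76.9 CPM in NLGF W24 male 4, above the rest. Il1rl1 stood at 0.404 CPM in WT W24 male 2, the highest of its group. Il1b stood at 0.292 CPM in NLGF W8 male 3 and at 0.273 CPM in WT W8 female 1, on 9 and 5 counts.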

How the results depend on the processing

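Over 73 results for single members, 3201 alternatives were run. In 3162 the call was as reported, in 18 a call was lost, in 21 a call was gained and in 0 a called direction reversed. Among the 3162 were 74 in which the sign differed but neither value was called. At week 24, 1 member was called between genotypes in place of 0 with all 60 libraries in 1 fit, with no filter, with DESeq2 and no filter (Il1rl1 in these) and with the replicate block (Il1r1, adjusted p = 0.032). At week 3, 1 was called with all 60 in 1 fit. For NLGF week 24 over week 8, 1 was called with DESeq2 and without the deep libraries, with or without NLGF W8 female 5. For NLGF week 8 over week 3, 2 were called with DESeq2 and with the replicate block. For WT week 24 over week 8, 1 was called with DESeq2. Leaving out 1 library gave 0 to 1 member for NLGF week 24 over week 8 and for the genotype effect at week 24 minus week 3, and 1 to 2 for NLGF week 8 over week 3. It gave 2 to 4 for NLGF week 24 over week 3 and 2 to 3 for each of the other WT comparisons with calls. Genes called at week 3 numbered 628, and 0 without the deep libraries, 165 with the replicate block, 1480 with DESeq2, 1862 with all 60 in 1 fit and 102 to 1923 with 1 library left out. With no filter they numbered 351, among females alone 190 and among males alone 6. At week 24 they numbered 145, and 224 with DESeq2, 44 among females and 37 among males alone. For WT week 24 over week 8 they numbered 47, and 110 with DESeq2, 29 with the replicate block and 28 to 81 with 1 library left out. For the genotype effect at week 24 minus week 3 they numbered 196, and 128 with no filter, 18 without the deep libraries and 129 to 460 with 1 library left out. Same-numbered libraries of the genotypes had a median correlation of 0.0429 at week 3, 0.0129 at week 8 and 0.209 at week 24, with 4, 3 and 6 of 10 pairs over 0.1. At week 24, 6 of 10 correlated best with their own number, a hint from the data that the labels do not bear out, and the libraries were not treated as paired. Depth limits Il1rl1, Il1a and Il1b, at a few counts per library.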
